A study of Homo sapiens with 12 samples.

Results

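The caspase and apoptosome genes described here are the 8 genes named CASP1, CASP2, CASP4, CASP6, CASP8, CASP9, APAF1 and CYCS in the deposited expression tables, out of 58735 genes in all. They were chosen by gene name, each name matched 1 row, and all 8 passed the filter on low counts in every comparison. The libraries came from HLE-B3, a human lens epithelial cell line that has been immortalized, and form 4 groups of 3. The groups were wild type (WT) cells that were untreated (0 h), WT cells exposed to 200 μM hydrogen peroxide (H2O2) for 12 h, and Atg7KO cells under the same 2 conditions. Atg7KO cells carry a CRISPR/Cas9 knockout of ATG7, which encodes an enzyme needed to build autophagosomes. The knockout cells were grown from individual clones picked after puromycin selection, and the labels do not say which clone or how many clones were sequenced. All cells were grown in DMEM/F12 medium with fetal bovine serum. Because untreated cells carry the time label 0 h, H2O2 and 12 h in culture cannot be told apart. The study design calls the libraries biological replicates and says nothing further of separate cultures, so p values measure the spread between these libraries, which may be partly technical.

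Caspases are cysteine proteases that are made as inactive precursors and are activated by assembly on a platform or by cleavage. In the mitochondrial route of apoptosis, cytochrome c (the product of CYCS) leaves the mitochondrion and binds APAF1, which assembles into the apoptosome and recruits caspase-9. In the death receptor route, caspase-8 is activated at the receptor, while caspase-1 and caspase-4 belong to the inflammasome pathways that lead to pyroptosis. Loss of lens epithelial cells by apoptosis under oxidative stress is a known feature of cataract. An mRNA level says nothing of cleavage, which is the step at which caspases are switched on.

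Promoter windows from RefSeq on GRCh38.p14, from 250 bases before to 50 bases after the annotated start, matched 7 of the 8 genes, with 11 windows between them. CASP1 had no window. The windows of APAF1, CYCS and CASP9 are shown because these genes encode the apoptosome and were called with H2O2 in WT cells, and that of CASP8 because its mRNA was called between genotypes at both times. Capitals mark the CCAAT box, the GC box spelled GGGCGG and the core of the NRF1 motif spelled GCATGCG, searched on both strands (a match on the other strand appears as its reverse complement), where neighbouring matches may overlap. The windows are APAF1 at chr12:98645040-98645339 (plus strand), CYCS at chr7:25125211-25125510 (minus strand), CASP9 at chr1:15524166-15524465 (minus strand, 1 of 2 windows) and CASP8 at chr2:201233213-201233512 (plus strand, 1 of 3 windows).
APAF1: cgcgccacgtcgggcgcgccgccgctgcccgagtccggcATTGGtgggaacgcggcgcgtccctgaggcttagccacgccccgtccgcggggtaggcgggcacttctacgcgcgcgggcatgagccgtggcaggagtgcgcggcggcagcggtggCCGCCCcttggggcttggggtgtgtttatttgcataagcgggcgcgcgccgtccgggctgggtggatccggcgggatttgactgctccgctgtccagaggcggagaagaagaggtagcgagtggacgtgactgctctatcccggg
CYCS: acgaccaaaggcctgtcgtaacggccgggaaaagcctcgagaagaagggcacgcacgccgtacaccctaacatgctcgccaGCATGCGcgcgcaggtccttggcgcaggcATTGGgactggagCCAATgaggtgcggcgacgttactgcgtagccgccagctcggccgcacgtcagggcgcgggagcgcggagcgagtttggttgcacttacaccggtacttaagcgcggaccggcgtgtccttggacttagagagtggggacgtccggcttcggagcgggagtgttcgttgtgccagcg
CASP9: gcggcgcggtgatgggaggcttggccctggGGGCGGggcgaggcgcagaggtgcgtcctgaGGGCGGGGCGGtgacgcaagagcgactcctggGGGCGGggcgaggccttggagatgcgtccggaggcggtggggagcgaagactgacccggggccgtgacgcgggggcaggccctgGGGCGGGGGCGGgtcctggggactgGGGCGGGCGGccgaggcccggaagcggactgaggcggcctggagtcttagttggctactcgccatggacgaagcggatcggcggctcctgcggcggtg
CASP8: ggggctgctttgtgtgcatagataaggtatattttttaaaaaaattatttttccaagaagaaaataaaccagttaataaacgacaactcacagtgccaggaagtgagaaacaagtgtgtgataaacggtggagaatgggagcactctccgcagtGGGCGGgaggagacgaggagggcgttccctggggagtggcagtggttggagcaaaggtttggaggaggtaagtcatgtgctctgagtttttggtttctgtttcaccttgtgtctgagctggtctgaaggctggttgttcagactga

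The APAF1 window held 71.3% G and C, 42 CG dinucleotides, 1 CCAAT and 1 GC box. The CYCS window held 64.7% G and C, 37 CG dinucleotides, 2 CCAAT, no GC box and 1 NRF1 core. The CASP9 window was the richest of the 4 in G and C, at 76%, with 36 CG dinucleotides and 8 GC boxes. The CASP8 window differed from these in base composition, with 46.3% G and C, 6 CG dinucleotides and 1 GC box. Over all 35116 windows, the medians were 58.7% G and C and 14 CG dinucleotides, and the share holding the motif was 34.6% for CCAAT, 45% for the GC box and 3.91% for the NRF1 core. A match describes letters in the window and is not a bound site.

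Between 15602183 and 17659496 reads were counted on genes in each library. Atg7KO 0 h replicate 1 stood apart: its counts differed from those of its 2 group mates with a chi-square of 75.5 and 77.2 per degree of freedom, against 2.08 to 4.38 for every other pair of replicates. Its log2 deviation from the mates correlated with log2 gene length (r = -0.388 across genes, which are not independent). Most tests that use untreated Atg7KO cells are therefore given with and without it. Ratios, overlaps of libraries and counts of differentially expressed genes include it. ATG7 mRNA was present in all groups, at means between 1.96 and 3.55 FPKM (fragments per kilobase of gene length, scaled to library size), and did not pass the test between Atg7KO and WT cells with all libraries (log2 difference 0.47, adjusted p = 0.0348 at 0 h and 0.15, adjusted p = 0.135 at 12 h). Without Atg7KO 0 h replicate 1 it was higher in untreated Atg7KO cells, by 0.43 (adjusted p = 6.02e-06). An edit in the coding sequence need not change the mRNA level, so these counts do not check the knockout label. Of the 10 lens epithelial markers, VIM lay between 191 and 373 FPKM, PAX6 between 0.505 and 1.35, SIX3 between 1.85 and 3.21 and CRYAB between 0 and 1.98, while FOXE3, SOX2, PROX1, MAF, CRYAA and CDH1 were at or near 0 in all libraries. Their summed level, nearly all of it VIM, was 194 to 200 FPKM in treated Atg7KO and 295 to 312 FPKM in treated WT libraries, and its part in the differences between these groups was not tested. The 4 leukocyte, 3 endothelial and 4 lens fibre markers summed to at most 2.12 FPKM, 0.566 FPKM and 1.05 FPKM per library.

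With H2O2, WT cells had more mRNA of APAF1, CYCS, CASP1, CASP2 and CASP6 and less of CASP9. APAF1 showed the largest change, with a 3.48-fold rise, and CASP9, its partner in the apoptosome, fell by 0.54 on the log2 scale. Between genotypes, CASP8 was higher in Atg7KO cells both at 0 h and at 12 h, and CASP1 was higher in H2O2-treated Atg7KO cells. Some of these calls were lost in other fits given below, among them CASP8 at 0 h and CASP6 in WT cells. At 0 h the log2 difference of CASP1 was 0.81, which passed edgeR's test only in some fits. Its adjusted p was 0.0405 with all 6 libraries and 0.00034 without Atg7KO 0 h replicate 1. A gene was called at a Benjamini-Hochberg adjusted p under 0.01 in edgeR's quasi-likelihood test, adjusted across the genes tested in that comparison. It was differentially expressed if its log2 fold change was also beyond 1 and its mean FPKM above 1 in at least 1 group. In bulk RNA, fewer cells of a type and less RNA per cell cannot be told apart.

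In WT cells, 6 of the 8 genes were called with H2O2 (5 higher and 1 lower), where 61% of all genes tested were called (30.9% higher and 30.1% lower). Of these, 2 were differentially expressed, against 12.5% of all genes, and the libraries of treated and untreated cells did not overlap for 7 of the 8, against 71.4% of all genes. In Atg7KO cells, 3 of the 8 were called with H2O2 (2 higher and 1 lower), where 26% of all genes were called (13.6% higher and 12.4% lower). There, 2 were differentially expressed, against 11.2% of all genes, and 6 did not overlap, against 59.6%. Without Atg7KO 0 h replicate 1, all 8 were called (7 higher and 1 lower), where 58.4% of all genes were called (29.8% higher and 28.6% lower). Between untreated Atg7KO and WT cells, 1 of the 8 was called and it was higher in Atg7KO cells, where 7.7% of all genes were called (4.42% higher and 3.28% lower). None was differentially expressed, against 3.5% of all genes, and 2 did not overlap, against 45.3%. Without the same library 3 were called, all higher, where 36.2% of all genes were called (18.2% higher and 17.9% lower). Between H2O2-treated Atg7KO and WT cells, 2 of the 8 were called, both higher in Atg7KO cells, where 55.6% of all genes were called (27.7% higher and 27.9% lower). None was differentially expressed, against 7.46% of all genes, and 4 did not overlap, against 68%. The share of the 8 genes that was called was thus below that of all genes in this last comparison and near it in the H2O2 response of WT cells. The median log2 fold change of the 8 genes was 0.36 with H2O2 in WT cells and 0.44 in Atg7KO cells, beside -0.01 and -0.03 over all genes tested. Between genotypes the median was 0.10 at 0 h and 0.08 at 12 h, beside 0.01 and -0.00 over all genes tested.

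The apoptosome genes were examined first. APAF1 (ENSG00000120868, chromosome 12, 98645141-98735433, plus strand) encodes the scaffold of the apoptosome. Its level was 6.47, 6.76 and 6.37 FPKM in untreated WT cells and 23.7, 24.0 and 20.8 FPKM in H2O2-treated WT cells. The Atg7KO libraries held 5.57, 7.29 and 7.75 FPKM without and 24.7, 25.0 and 24.3 FPKM with H2O2. Treated and untreated libraries lay far apart in both genotypes. The rise was 1.80 ± 0.06 (log2 fold change ± SE, n = 3 against 3, adjusted p = 4.217e-31 by edgeR's quasi-likelihood test) in WT cells and 1.84 ± 0.14 (adjusted p = 0.000118) in Atg7KO cells. Without Atg7KO 0 h replicate 1, which had the lowest level of its group, the rise in Atg7KO cells was 1.70 ± 0.05. Between genotypes, the log2 difference in edgeR's test was 0.10 ± 0.04 at 12 h (adjusted p = 0.0401, called without a filter on low counts at 0.13 with adjusted p = 0.00465). It was 0.04 (adjusted p = 0.384) without WT 12 h replicate 3 and -0.01 (adjusted p = 0.824) with the gene length correction. The 3 Atg7KO libraries lay above the 3 WT libraries, where libraries did not overlap for 68% of all genes. At 0 h the log2 difference was 0.07 ± 0.14 (adjusted p = 0.745), and 0.21 ± 0.06 (adjusted p = 0.00312) without Atg7KO 0 h replicate 1.

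CYCS (ENSG00000172115, chromosome 7, 25120091-25125361, minus strand) encodes cytochrome c, the carrier of electrons in the respiratory chain that binds APAF1 once released. It was the most abundant of the 8 mRNAs per length in every group. Its level was 20.6, 21.5 and 21.8 FPKM in untreated WT cells and 34.5, 37.4 and 35.2 FPKM in H2O2-treated WT cells. With the knockout the level was 37.6, 21.6 and 20.9 FPKM without and 37.0, 35.8 and 34.8 FPKM with H2O2. Replicate 1 of untreated Atg7KO cells thus lay just above every treated library, while its 2 mates lay with untreated WT cells. CYCS rose by 0.74 ± 0.05 in WT cells (adjusted p = 2.403e-18). In Atg7KO cells the log2 fold change was 0.43 ± 0.22 (adjusted p = 0.163), and 0.75 ± 0.04 (adjusted p = 3.923e-46) without replicate 1. Between H2O2-treated Atg7KO and WT cells, the log2 difference had a 95% confidence interval from -0.08 to 0.08. Between untreated cells it was 0.32 ± 0.22 (adjusted p = 0.350), and 0.00 ± 0.05 (adjusted p = 0.993) without replicate 1.

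CASP9 (ENSG00000132906, chromosome 1, 15490832-15526534, minus strand) encodes the initiator caspase that the apoptosome activates. Its level was 2.27, 2.52 and 1.88 FPKM in untreated WT cells and 1.57, 1.34 and 1.68 FPKM in H2O2-treated WT cells. Atg7KO cells had 2.26, 2.62 and 2.42 FPKM without and 1.37, 1.27 and 1.20 FPKM with H2O2. In both genotypes every treated library lay below every untreated library, and CASP9 was the only 1 of the 8 genes with this direction. The fall was -0.54 ± 0.13 on the log2 scale in WT cells (adjusted p = 0.000263) and -0.93 ± 0.13 in Atg7KO cells (adjusted p = 0.00133, and -0.99 ± 0.14 without Atg7KO 0 h replicate 1). The call in Atg7KO cells was lost without Atg7KO 12 h replicate 2 or 3 (adjusted p = 0.0111 and 0.0113), and the call in WT cells was lost in limma on log2(FPKM + 1) without a filter (adjusted p = 0.0415). At 12 h the libraries of the genotypes overlapped, with a log2 difference of -0.26 ± 0.14 (adjusted p = 0.0895), and at 0 h it was 0.13 ± 0.15 (adjusted p = 0.574), or 0.19 ± 0.12 (adjusted p = 0.218) without Atg7KO 0 h replicate 1.

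Because APAF1 and CASP9 moved in opposite directions, their levels were compared within each library on the FPKM scale. The ratio of APAF1 to CASP9 was 2.98 ± 0.367 (mean ± SD, n = 3) in untreated WT cells and 15.1 ± 2.76 in H2O2-treated WT cells. In Atg7KO cells it was 2.82 ± 0.368 without and 19.3 ± 1.17 with H2O2. The treated libraries did not overlap the untreated ones, whereas the 2 genotypes overlapped at 0 h, and at 12 h the highest WT library nearly met the lowest Atg7KO library. The ratio of CYCS to APAF1 was 3.26 ± 0.132 in untreated WT cells and 1.57 ± 0.119 in treated WT cells. In untreated Atg7KO cells this ratio was 6.74 in replicate 1 and 2.95 and 2.69 in its mates, and it was 1.45 ± 0.0380 with H2O2. These ratios describe mRNA and follow from the changes above, so they were not tested.

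The initiator caspases outside the apoptosome were examined next. CASP8 (ENSG00000064012, chromosome 2, 201233443-201287711, plus strand) encodes the initiator caspase of death receptors, which also restrains necroptosis. Its level was 2.54, 2.16 and 2.18 FPKM in untreated WT cells and 2.44, 2.79 and 2.56 FPKM in H2O2-treated WT cells. The Atg7KO libraries held 4.07, 3.34 and 3.83 FPKM without and 4.98, 4.72 and 4.67 FPKM with H2O2. All 6 Atg7KO libraries lay above all 6 WT libraries, and the WT libraries with and without H2O2 overlapped. CASP8 was higher in Atg7KO cells by 0.70 ± 0.12 at 0 h (log2 difference, adjusted p = 0.00791) and by 0.88 ± 0.08 at 12 h (adjusted p = 1.435e-11). The call at 0 h was lost when any 1 of the other 5 libraries was left out (adjusted p between 0.0141 and 0.0529), but not without Atg7KO 0 h replicate 1 (0.65 ± 0.10, adjusted p = 5.364e-10). With H2O2, the log2 fold change of CASP8 was 0.17 ± 0.10 in WT cells (adjusted p = 0.113) and 0.35 ± 0.10 in Atg7KO cells (adjusted p = 0.0311, and 0.41 ± 0.08 with adjusted p = 1.568e-06 without Atg7KO 0 h replicate 1). In WT cells it was called with the gene length correction, at 0.31 ± 0.10 (adjusted p = 0.00404). The ratio of CASP8 to CASP9 within a library was 1.05 ± 0.165 in untreated WT cells, 1.72 ± 0.308 in treated WT cells, 1.55 ± 0.266 in untreated Atg7KO cells and 3.74 ± 0.130 in treated Atg7KO cells.

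CASP2 (ENSG00000106144, chromosome 7, 143288215-143307696, plus strand) encodes an initiator caspase that is activated by PIDD1 and CRADD. Its level was 6.17, 5.56 and 5.58 FPKM in untreated WT cells and 7.81, 7.86 and 7.31 FPKM in treated WT cells. With the knockout the level was 3.52, 5.69 and 5.29 FPKM without and 7.89, 7.70 and 8.25 FPKM with H2O2. Treated libraries lay above untreated ones in both genotypes, and replicate 1 of untreated Atg7KO cells was the lowest of the 12. CASP2 rose by 0.40 ± 0.06 in WT cells (adjusted p = 1.005e-07), a call that was lost with all 12 libraries in 1 fit (adjusted p = 0.0246). In Atg7KO cells its log2 fold change was 0.71 ± 0.18 (adjusted p = 0.0179), called in DESeq2 (adjusted p = 0.00153), and 0.52 ± 0.06 (adjusted p = 9.522e-16) without replicate 1. Between genotypes the log2 difference was 0.05 ± 0.05 at 12 h (adjusted p = 0.455, 95% confidence interval from -0.06 to 0.15) and -0.25 ± 0.18 at 0 h (adjusted p = 0.367), or -0.07 ± 0.07 (adjusted p = 0.463) at 0 h without replicate 1.

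Of the executioner caspases, CASP6 (ENSG00000138794, chromosome 4, 109688622-109703583, minus strand) encodes a protease that cleaves lamins. Its level was 10.3, 8.87 and 10.3 FPKM in untreated WT cells and 12.9, 11.9 and 12.1 FPKM in treated WT cells. Atg7KO cells had 12.0, 9.82 and 8.92 FPKM without and 13.9, 14.2 and 13.9 FPKM with H2O2. Treated libraries lay above untreated ones in both genotypes, and at 12 h the Atg7KO libraries lay above the WT libraries. CASP6 rose by 0.32 ± 0.09 in WT cells (adjusted p = 0.00148), a call that was lost without WT 0 h replicate 2 (adjusted p = 0.0265), without WT 12 h replicate 1 (adjusted p = 0.0151) and in DESeq2 (adjusted p = 0.0159). It was also lost with all 12 libraries in 1 fit (adjusted p = 0.0246) and in limma without a filter (adjusted p = 0.0175). With the gene length correction the value was 0.14 ± 0.09 (adjusted p = 0.154). In Atg7KO cells the log2 fold change was 0.45 ± 0.12 (adjusted p = 0.0233), and 0.57 ± 0.09 (adjusted p = 3.397e-09) without Atg7KO 0 h replicate 1. Between genotypes at 12 h it was 0.18 ± 0.08 (adjusted p = 0.0372), and it was called with limma on log2(FPKM + 1) (adjusted p = 0.00605) and with the gene length correction (0.36 ± 0.08, adjusted p = 0.000128). At 0 h it was 0.06 ± 0.14 (adjusted p = 0.798), or -0.06 ± 0.10 (adjusted p = 0.669) without Atg7KO 0 h replicate 1. CASP6 overlaps MCUB on the opposite strand, with 105 of its 1943 exon bases in GENCODE release 29 shared with an exon of MCUB. MCUB had between 406 and 745 reads per library. It was lower in treated Atg7KO than in treated WT cells (log2 difference -0.26, adjusted p = 0.00543 by edgeR's test). The strand setting of the counting is not given in the sources used here, so the CASP6 values are uncertain to the extent of this overlap.

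Both inflammatory caspases were measured. CASP1 (ENSG00000137752, chromosome 11, 105025443-105035250, minus strand) encodes the inflammasome protease that matures interleukin-1 beta. Its level was 1.74, 1.81 and 1.49 FPKM in untreated WT cells, from 98 to 123 reads, and 3.59, 4.51 and 4.51 FPKM in treated WT cells. The Atg7KO libraries held 3.74, 2.97 and 2.15 FPKM without and 5.89, 5.83 and 6.16 FPKM with H2O2. The 4 groups were ordered with treated Atg7KO cells highest and untreated WT cells lowest, and only treated WT and untreated Atg7KO cells overlapped among neighbours in that order. CASP1 rose by 1.32 ± 0.13 in WT cells (adjusted p = 7.606e-13) and by 1.01 ± 0.19 in Atg7KO cells (adjusted p = 0.00523, and 1.21 ± 0.11 without Atg7KO 0 h replicate 1). The call in Atg7KO cells was lost without Atg7KO 0 h replicate 2 or any 1 of the Atg7KO 12 h replicates (adjusted p between 0.0185 and 0.0266). Together with APAF1 it made up the 2 differentially expressed genes of each H2O2 response. It was higher in Atg7KO cells at 12 h by 0.50 ± 0.10 (adjusted p = 3.471e-05), a call that was lost with all 12 libraries in 1 fit (adjusted p = 0.0240). At 0 h the log2 difference was 0.81 ± 0.22 (adjusted p = 0.0405), and 0.61 ± 0.15 (adjusted p = 0.00034) without Atg7KO 0 h replicate 1. With all 12 libraries in 1 fit, the difference at 0 h was called (adjusted p = 0.00409).

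CASP4 (ENSG00000196954, chromosome 11, 104942866-104969436, minus strand) encodes the sensor of intracellular lipopolysaccharide. Its 12 libraries spanned the smallest fold range of the 8 genes, between 8.89 and 9.29 FPKM in untreated WT cells and between 9.56 and 10.3 FPKM in treated WT cells. In Atg7KO cells it ranged from 8.04 to 9.49 FPKM without and from 9.37 to 10.2 FPKM with H2O2. Its log2 fold change with H2O2 was 0.12 ± 0.06 in WT cells (adjusted p = 0.0533, and 0.26 ± 0.05 with adjusted p = 4.878e-05 under the gene length correction) and 0.18 ± 0.10 in Atg7KO cells (adjusted p = 0.186), and 0.25 ± 0.06 (adjusted p = 1.99e-05) without Atg7KO 0 h replicate 1. Between genotypes at 12 h the difference was -0.03 ± 0.05, with a 95% confidence interval from -0.13 to 0.07, and at 0 h it was -0.09 ± 0.10 (adjusted p = 0.567), or -0.16 ± 0.06 (adjusted p = 0.0237) without Atg7KO 0 h replicate 1. The ratio of CASP1 to CASP4 within a library, on the FPKM scale, was 0.185 ± 0.0194 in untreated WT, 0.424 ± 0.0438 in treated WT, 0.342 ± 0.0696 in untreated Atg7KO and 0.615 ± 0.0397 in treated Atg7KO cells.

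**Figure D1:**
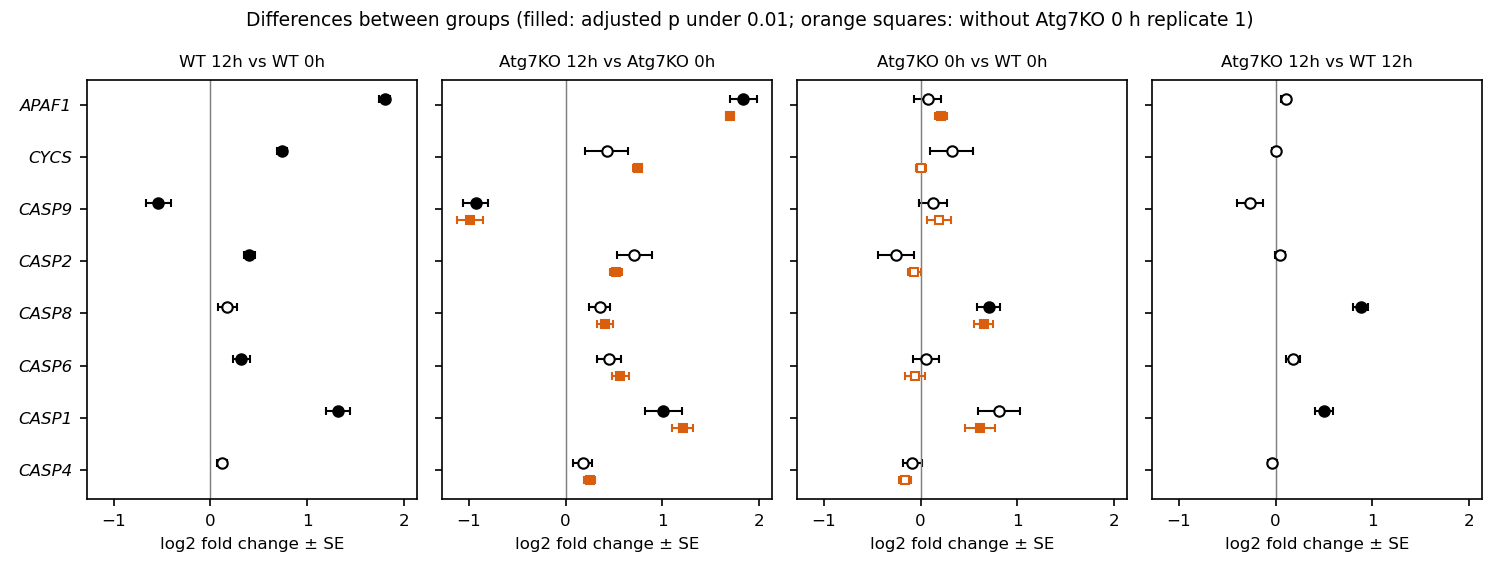
Log2 fold change ± SE of the 8 genes (rows) in 4 comparisons of groups by edgeR, where filled symbols have an adjusted p under 0.01 and orange squares are fits without Atg7KO 0 h replicate 1. CYCS in Atg7KO cells moved from 0.43 ± 0.22 to 0.75 ± 0.04 without that library, beside 0.74 ± 0.05 in WT cells.

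Whether the H2O2 response differed between the genotypes was tested as an interaction over all 12 libraries. None of the 8 genes was called by edgeR's quasi-likelihood test, where 14% of all genes tested were called. At an unadjusted p under 0.05 the count was also 0, where 42.6% of all genes passed, and DESeq2 and limma on log2(FPKM + 1) called 0 as well. The difference of responses was -0.38 ± 0.19 for CASP9 (adjusted p = 0.145), 0.31 ± 0.19 for CASP2 (adjusted p = 0.241), -0.31 ± 0.24 for CYCS (adjusted p = 0.335) and -0.30 ± 0.24 for CASP1 (adjusted p = 0.353). Without Atg7KO 0 h replicate 1, none was called and 34.1% of all genes were. There, 2 of the 8 genes had an unadjusted p under 0.05 (49.4% of all genes), CASP9 at -0.43 ± 0.19 (adjusted p = 0.0516) and CASP6 at 0.26 ± 0.13 (adjusted p = 0.0876). In that fit the difference for CYCS was 0.02 ± 0.07 (adjusted p = 0.856) and that for APAF1 was -0.09 ± 0.07 (adjusted p = 0.363).

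Untreated Atg7KO replicate 1 moved the 8 genes unequally. Its FPKM was 1.77 times the mean of its mates for CYCS, 1.46 times for CASP1 and 1.28 times for CASP6. It was 0.642 times that mean for CASP2, 0.741 times for APAF1 and 0.895 times for CASP9, with CASP4 and CASP8 at 1.17 and 1.14 times. The part that this library's deviation with gene length has in these values was not tested gene by gene.

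For each of the 8 genes, the single most similar gene was taken by Pearson r of log2 CPM (reads scaled to library size) over the 12 libraries, among 12289 other genes, as a description. APAF1 was most like E2F7 (r = 0.998), CYCS like EIF3M (0.990), CASP9 like ADAM21 (0.970) and CASP2 like AGO2 (0.987). CASP8 was most like TMEM30A (r = 0.982), CASP6 like MAP2K1 (0.978), CASP1 like FAM129B (0.985) and CASP4 like GLO1 (0.937). These libraries fall into 4 groups, so any 2 genes with the same group pattern reach a high r. APAF1 had 906 genes with r above 0.9, and CASP4 had 8.

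The genes that act with the 8 were then counted by role, from lists written with earlier results of these data known. These counts are to be read against all genes tested, of which 30.9% were higher and 30.1% lower with H2O2 in WT cells, and 27.7% higher and 27.9% lower between treated genotypes. Of 11 genes for the synthesis and release of cytochrome c, 8 were higher and 2 lower with H2O2 in WT cells, with the pro-apoptotic PMAIP1 highest at 3.72 and the mitochondrial protease OMA1 lowest at -0.79. In treated Atg7KO against treated WT cells, 1 of these 11 was higher (BAX, 0.30) and 6 were lower, with PMAIP1 lowest at -0.96. At 0 h PMAIP1 was instead higher in Atg7KO cells, by 0.76 (adjusted p = 0.00983 by edgeR's test), or 0.61 (adjusted p = 1.284e-22) without Atg7KO 0 h replicate 1. The median of the list was 0.16 at 0 h, or 0.12 without that library, and -0.31 at 12 h. CYCS itself, the released protein's gene, did not pass the test at 12 h.

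Of 14 adaptors and platforms, 10 could be tested in WT cells. With H2O2, 6 were higher and 2 lower, from -1.39 for CARD8 to 2.95 for NLRP3, the inflammasome sensor that acts through caspase-1. PYCARD, AIM2, NOD2 and CARD16 had too few reads to be tested. The inflammasome adaptor PYCARD had at most 2 reads in any library, so the NLRP3 value does not describe a complete inflammasome. In treated Atg7KO against treated WT cells, 4 of 10 were higher and 2 lower, from -1.46 for NLRC4 to 1.11 for PIDD1, the platform of caspase-2. NLRC4 lay near the floor, with 6 to 12 reads per treated Atg7KO library and 20 to 31 per treated WT library. PIDD1 had 1828 to 2110 and 842 to 922 reads there. Of 7 caspase inhibitors and their antagonists, 2 were higher and 3 lower with H2O2 in WT cells, a share called near that of all genes (61%). They ran from -0.52 for BIRC6 to 0.91 for DIABLO (the tested 1 of 2 table rows with this symbol). That DIABLO row had low means, 0.22 FPKM in untreated and 0.42 FPKM in treated WT cells. Whether it holds all reads of the gene was not tested. Between treated genotypes, 3 of the 7 were higher and 2 lower, from -0.66 for BIRC2 to 0.48 for XIAP, the direct inhibitor of caspase-9. Of 13 caspase substrates, 5 were higher and 5 lower with H2O2 in WT cells. Between treated genotypes, 7 of the 13 were higher and none was lower in Atg7KO cells, from 0.19 for DFFA, the inhibitor of the apoptotic nuclease, to 2.08 for IL1B, the substrate of caspase-1. The median log2 difference of this list was 0.24, beside -0.00 over all genes. At 0 h it was 0.25, beside 0.01, or 0.22 without Atg7KO 0 h replicate 1. IL1B was also higher in untreated Atg7KO cells, by 3.08 (adjusted p = 0.000161 by edgeR's test), or 2.89 (adjusted p = 7.992e-128) without that library. Between untreated genotypes, 2, 0, 2 and 2 genes were called among the adaptors, inhibitors, cytochrome c genes and substrates, where 7.7% of all genes were called. Without Atg7KO 0 h replicate 1 these counts were 4 of 10, 5 of 7, 5 of 11 and 7 of 13, where 36.2% of all genes were called.

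Genes that overlap the 8 by coordinates and pseudogenes named after them held few reads beside them, apart from MCUB at CASP6. Other related genes were not checked. The multi-mapping setting is not given, so these counts do not measure reads of the 8 that were lost or placed elsewhere. The 40 CYCS pseudogenes in the table, of which 15 had any reads, together held 1.43% as many reads as CYCS. Both CASP1 pseudogenes had 0 reads. CELA2B, which overlaps CASP9 on the opposite strand, held 2.44% as many reads as CASP9, and ANKS1B held 0.171% as many as APAF1. Within 250 kb of CASP8 on chromosome 2, 9 genes could be tested between treated genotypes, of which 3 were higher and 2 lower in Atg7KO cells, with a median of 0.08, where 55.6% of all genes were called. Among them lie 2 genes of the same death receptor pathway, CASP10 at 0.45 and CFLAR, an inhibitor of caspase-8 activation, at -0.37 (adjusted p = 5.2e-07).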

How the data were processed

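Total RNA of 12 HLE-B3 libraries (4 groups of 3, grouped by their labels) was sequenced. The authors deposited raw read counts for 58735 genes and FPKM values made from them by gene length and library size. The submitters' processing notes name HISAT2 2.0.5, featureCounts 1.5.0-p3 and GRCh38, while the strand and multi-mapping settings are not given in the sources used here. Here, counts were filtered by filterByExpr (minimum count 10), scaled by TMM and tested with edgeR 4.0.16 (limma 3.58.1, R 4.3.3), by the robust quasi-likelihood test with Benjamini-Hochberg adjustment over the genes that passed the filter. Each comparison of 2 groups used its 6 libraries without covariates, and the interaction used all 12. SE was taken from the log2 fold change and the F statistic. The fits were also run on simulated counts that held no library standing apart from its mates. Their spread between replicates was smaller than in the comparisons with untreated Atg7KO cells, so that run does not check those comparisons. With 15602183 to 17659496 reads per library (median 17205174), precision was limited by replicate spread and, at low reads, by counting error.

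The 8 genes and the lists were chosen with earlier results of these data known. The naming rule took all 8 genes, ATG7, the most correlated gene of each, genes sharing reads, and the highest and lowest called gene of each list in 2 comparisons. The named neighbours of CASP8 were chosen after their values were seen. The results of 1 further gene list are not reported here. Alternatives were DESeq2 1.42.0, RLE and upper quartile scaling, no filter, at least 10 counts in every library, all 12 libraries in 1 fit, a replicate block, each library left out, limma on log2(FPKM + 1) or log2(FPKM + 0.1), and a gene length correction (lowess, span 0.3). Promoter windows came from RefSeq and exon overlap from GENCODE release 29, in which all 8 genes had the coordinates of the deposited table.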

Additional observations from a re-analysis of the deposited data

How the results depend on the processing

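The count of the 8 genes called between treated genotypes was 2 and fell to 1 with all 12 libraries in the fit and to 1 with limma without a filter (CASP1 lost, adjusted p = 0.0240 and 0.0130), and it was 3 without a filter on counts (APAF1 added) and with limma on log2(FPKM + 1), on log2(FPKM + 0.1) and the length correction (CASP6 added), and 2 in each fit that left out 1 library. Between untreated genotypes the count was 1, and was 2 with all 12 libraries, 0 with limma on log2(FPKM + 1), on log2(FPKM + 0.1) and without a filter, and 0 to 3 when 1 library was left out. For the H2O2 response of Atg7KO cells the count was 3, and was 6 with all 12 libraries, 5 with the length correction, 4 with DESeq2 and without a filter on counts (CASP2 added), 2 with limma without a filter (CASP1 lost) and 1 to 8 when 1 library was left out, with 8 without Atg7KO 0 h replicate 1, and 1 without Atg7KO 12 h replicate 2 or 3. In WT cells it was 6, and was 4 with all 12 libraries (CASP2 and CASP6 lost), 4 with limma without a filter (CASP6 and CASP9 lost), 5 with DESeq2 (CASP6 lost), 7 with the length correction (CASP4 and CASP8 added, CASP6 lost) and 5 to 6 when 1 library was left out, and for the interaction it was 0 in all of these.

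Direction changed only for differences that were not called in the reported fit. Between treated genotypes these were CASP2 (-0.073) and APAF1 (-0.012) with the length correction, CYCS (-0.0028 with RLE, -0.041 with upper quartile scaling and -0.023 with at least 10 counts), and, when 1 library was left out, CASP4 (-0.060 to 0.0020) and CYCS (-0.027 to 0.030). Between untreated genotypes they were CASP4 (0.0099) and CASP6 (-0.11) with the length correction and, when 1 library was left out, CASP6 (-0.060 to 0.14) and APAF1 (-0.024 to 0.21). In the interaction they were CASP4 (-0.13), CASP8 (-0.011) and APAF1 (-0.18) with the length correction, APAF1 (-0.0019) with upper quartile scaling and, when 1 library was left out, APAF1 (-0.087 to 0.14) and CYCS (-0.45 to 0.018). The cause was not tested.

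Nothing in the labels pairs the replicate numbers: deviations of same-numbered libraries correlated between -0.0939 and 0.117 over 18 pairs, and a library correlated best with its own number in 11 of 36 cases. With the number as a replicate block, the count of the 8 genes was 0 between untreated genotypes (CASP8 at an adjusted p of 0.0196) and 2, 6, 3 and 0 in the other comparisons, as without it.

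Over all genes, 1182 were called between untreated genotypes, against 499 with the replicate block, 3154 with all 12 libraries, 2307 with DESeq2, 1803 with the length correction, 349 with limma without a filter, and 287 to 5734 when 1 library was left out. For the Atg7KO response 4025 were called, against 6528 with all 12 libraries, 2194 with limma without a filter, and 1767 to 9341 when 1 was left out. Between treated genotypes 8847 became 4876, and 5266 with limma without a filter. The interaction's 2366 became 4054 without a filter, 1525 with limma without one, and 1332 to 5974 when 1 library was left out. DESeq2 and the fit without a filter take in many genes with few reads, and their median over all genes was 0.235 and 0.201 in the WT response against -0.01.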
